A study of Medicago truncatula with 21 samples.

Results

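Plastid-encoded transcripts were followed through seed maturation in the model legume Medicago truncatula. They are the 85 identifiers, of 44473 in the deposited expression table, whose name places them on the plastid genome by the mark CPg. The same table holds 72 identifiers of the mitochondrial genome and 44316 others, taken here as nuclear. Identifiers are written below without their common start, MtrunA17, so that CPg0492361 stands for the full plastid name. RNA was sequenced from seeds of the wild-type line R108 and of mutants whose ABI4 gene carries a copy of the retrotransposon Tnt1, abi4-1 (line NF19813) and abi4-2 (line NF2525). For R108 and abi4-1 there are seeds of 13 and 24 days after pollination (DAP) as well as mature seeds, for abi4-2 mature seeds alone, with 3 libraries in each of the 7 groups. The labels give the same growth conditions for all groups, the R108 background for both alleles, and no treatment. Each allele is a single insertion line, such lines usually carry further Tnt1 copies elsewhere, and every statement on developing mutant seeds rests on abi4-1 alone.

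The plastid genome encodes core subunits of both photosystems, of the cytochrome b6f, ATP synthase and NDH complexes, the large subunit of Rubisco, and parts of the plastid's own ribosomes and RNA polymerase, with its tRNAs and rRNAs. Its genes lie in clusters that are copied together into long RNAs and then cut, by a bacterial-type polymerase with plastid-encoded core subunits and by a nuclear-encoded phage-type polymerase. Legume embryos are green while reserves are laid down and lose their chlorophyll late in maturation. ABI4 is an AP2/ERF transcription factor, known mainly from Arabidopsis, where it acts in abscisic acid and sugar signalling. RefSeq's annotation of assembly MtrunA17r5.0-ANR lists 109 plastid entries, of which 76 are protein-coding, 29 are tRNAs and 4 are rRNAs. None of the deposited plastid identifiers matched an entry of that annotation, so no member is given a gene name, a role or a sequence here, and neither the ABI4 transcript nor markers of seed tissues were examined. In whole-seed RNA, fewer plastid-bearing cells and less plastid RNA per cell cannot be told apart.

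The deposited values carry the name FPKM but were read as normalized read counts, from totals near the number of reads and not from any statement of the authors. Whether they were divided by transcript length is not given, so levels are compared between groups and not between members. Library totals were 18365151 to 24032451 normalized counts. The 3 stages appear to have been scaled separately, since the median-of-ratios factors over all 21 libraries were alike within a stage, between 1.55 and 1.58 (13 DAP), 0.552 and 0.560 (24 DAP) or 1.11 and 1.13 (mature). Values were written with 2 decimals at 13 and 24 DAP and with up to 9 decimals in mature seeds, so the processing of mature libraries may have differed. Stage and scaling set coincide and cannot be told apart, and no test was made between stages. Levels across stages are given on a scale common to all 21 libraries, made by the median of ratios, and as a share of the library total. At 24 DAP 5 transcripts took 51.2 to 54.7% of the library total, against 1.44 to 7.04% (13 DAP) and 0.236 to 0.778% (mature), and the share is therefore also given without these 5. The libraries numbered 1 stood apart at the developing stages: they had the lowest plastid share of their group at 13 DAP and the highest at 24 DAP, in R108 and in abi4-1 alike. Plastid RNA mostly lacks the stable poly(A) tails of nuclear mRNA, and the labels state an mRNA enrichment without its method. Its part in the plastid values was not tested, and the mitochondrial transcripts are given beside the main results.

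In wild-type seeds the plastid transcripts were most abundant at maturity, and in both abi4 lines they were far less abundant at that stage. In R108, plastid transcripts made up 0.116, 0.197 and 0.237% of the library total at 13 DAP, 0.107, 0.0735 and 0.0745% at 24 DAP, and 0.430, 0.557 and 0.501% in mature seeds. All 3 mature libraries were above every developing library. In abi4-1 the shares were 0.107, 0.254 and 0.222% at 13 DAP, 0.110, 0.0535 and 0.0778% at 24 DAP, and 0.112, 0.118 and 0.1002% in mature seeds. The mature abi4-2 libraries had shares of 0.113, 0.114 and 0.116%. Neither set of mature mutant libraries overlapped with mature R108, and as a share of the total both lay within the range of the developing R108 libraries. Without the 5 leading transcripts the mature mutant shares were 0.101 to 0.118% in abi4-1 and 0.113 to 0.116% in abi4-2. On that scale they were below every developing R108 library, of which the lowest was at 0.125%. On the common scale their sums lay within the range of developing R108. The mean share was 0.496% ± 0.0633 (SD, n = 3) in mature R108, 0.110% ± 0.00894 in mature abi4-1 and 0.114% ± 0.00152 in mature abi4-2 (n = 3 each).

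**Figure D1:**
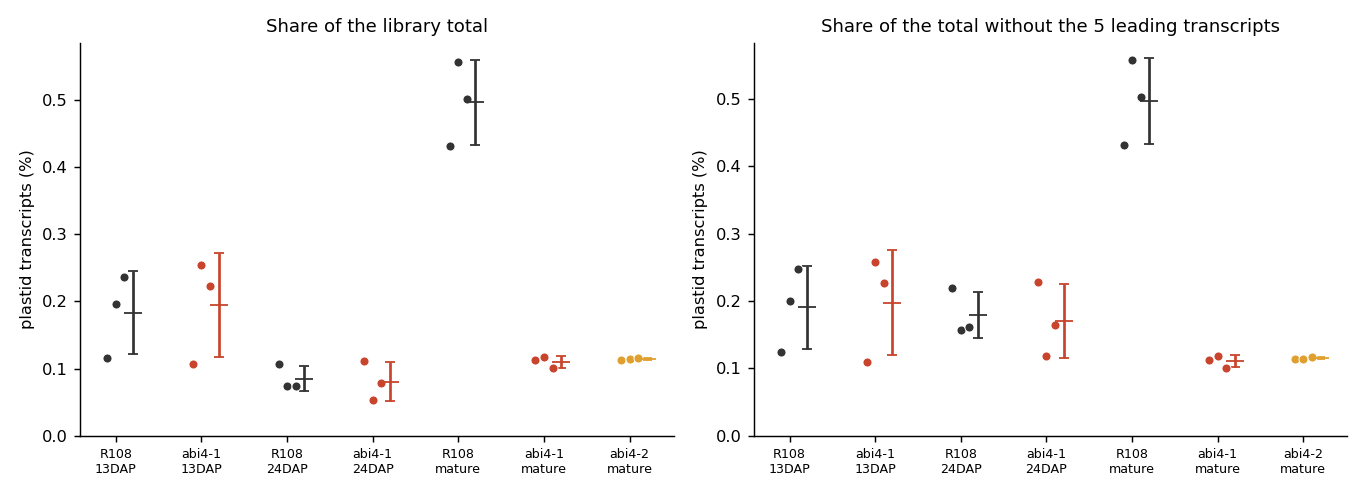
Share of all normalized counts taken by the 85 plastid identifiers (percent) in each library of the 7 groups, of the library total (left) and of the total without the 5 transcripts that lead at 24 DAP (right). Points are libraries, horizontal lines are means and bars are 1 SD (n = 3); the 3 mature R108 libraries lie between 0.430 and 0.557% on the left, above all 18 others.

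Between 13 and 24 DAP the direction of the summed level depended on the scale. As a share of the total, the R108 mean was 0.183% ± 0.0614 at 13 DAP and 0.0850% ± 0.0190 at 24 DAP. Without the 5 leading transcripts the means were 0.191% ± 0.0615 and 0.179% ± 0.0345, a difference smaller than the spread between libraries. On the common scale the summed plastid level was 26559 ± 8534 at 13 DAP and 31084 ± 5076 at 24 DAP (n = 3 each), again with overlapping libraries. From 24 DAP to maturity the R108 level was higher on every scale: the share without the leading transcripts was 0.497% ± 0.0634 in mature seeds, and the common-scale sum was 88814 ± 9979. In abi4-1 the direction of the last step depended on the scale. Its mean share of the total was 0.0806% ± 0.0286 at 24 DAP and 0.110% ± 0.00894 at maturity, whereas without the leading transcripts it was 0.171% ± 0.0554 and 0.111% ± 0.00902. The abi4-1 sum on the common scale was 28113 ± 8134.5 at 24 DAP and 19232 ± 1087 at maturity, with no overlap between libraries.

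Most members were detected in every group. Of the 85 members, 55 had at least 10 normalized counts in all 21 libraries, 65 in all libraries of 13 DAP, 57 in all of 24 DAP and 75 in all 9 mature libraries. A library held between 59 and 80 members at that level. Tests used a floor of 10 normalized counts in at least 3 libraries of a fit, which 71 members passed at 13 DAP, 67 at 24 DAP and 79 in mature seeds. The 4 that passed in no fit were CPg0493031, listed at 0 in all 21 libraries, CPg0492481, at most 7.77, CPg0492221, at most 23.3, and CPg0492561, at most 71.1. The last of these was above 0 in 12 libraries, but its level in mature R108 came from replicate 3 alone, the others being listed at 0.

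Through R108 maturation the members did not move as one block. On the common scale, 2 of 74 members had a level at 24 DAP that was 4-fold or more above that of 13 DAP with no overlap between the groups, and 0 were 4-fold lower. Over all genes with a mean of at least 10 in either group, 7.23% were that much higher and 11.1% that much lower. The median log2 ratio of the members was 0.39, with a range from -1.02 to 2.40, beside a median of -0.11 over all genes. From 24 DAP to maturity, 33 of 82 members were at least 4-fold higher and 7 were at least 4-fold lower, against 15% and 28.6% of all genes. The median log2 ratio of the members for that step was 1.78 and ran from -2.82 to 11.89, beside -0.16 over all genes. Scaling by the library total instead would raise the log2 ratios of mature seeds to 24 DAP by 1.03 and give the median of 24 to 13 DAP the other sign, with a shift of -1.33. Of 82 members, 60 had their highest R108 mean in mature seeds, 14 at 24 DAP and 8 at 13 DAP.

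**Figure D2:**
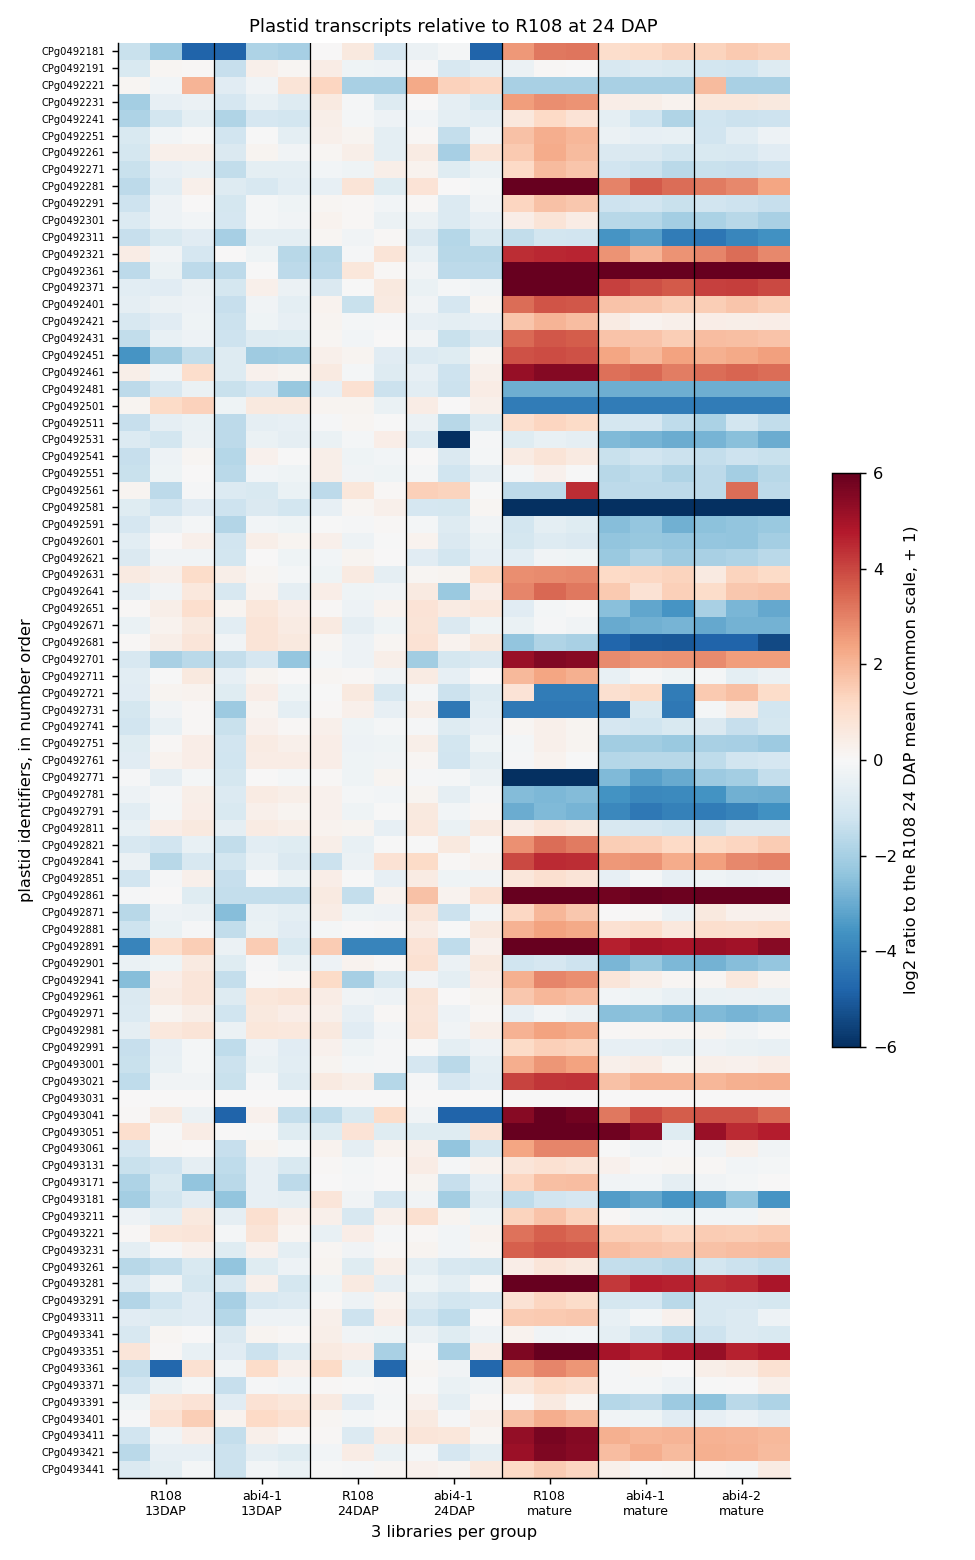
Log2 ratio of each of the 85 plastid members in each of the 21 libraries to its mean in R108 at 24 DAP (common scale, 1 added), one row per identifier in number order and 3 columns per group. Colours stop at 6 in either direction; red marks higher and blue lower levels, and the block of mature R108 holds both deep red rows such as CPg0492361 and deep blue rows such as CPg0492581.

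Between the first stages the members with the highest R108 ratios, among those with a mean of 10 in both groups, were CPg0493261, CPg0493181 and CPg0493291. CPg0493261 stood at 292, 331 and 492 deposited counts at 13 DAP and at 364, 195 and 408 at 24 DAP, and on the common scale its level was 2.45-fold higher at 24 DAP. As deposited, ratios of 24 to 13 DAP differ from the common scale by -1.50 on the log2 scale, and as shares without the 5 leading transcripts by -0.31. The lowest ratios were those of CPg0492501, CPg0493401 and CPg0492891, and CPg0492501 stood at 30.8, 60.2 and 72.5 deposited counts at 13 DAP and at 10.6, 10.9 and 7.09 at 24 DAP. The members with at least a 4-fold higher level at 24 DAP were the low CPg0492181 and CPg0492451, named after their values were seen, at 7.30 to 23.0 and 9.72 to 20.2 deposited counts at 24 DAP. At any size, 22 of 74 members were higher at 24 DAP with groups apart on the common scale and 0 were lower, against 28.8% and 39.5% of all genes. The direction turned with the scale: as shares of the library total 0 were higher and 33 lower, and without the 5 leading transcripts 7 were higher and 5 lower.

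The class that was highest at maturity held 16 members with a mature level at least 16 times that at 24 DAP. It consisted of CPg0492281, CPg0492321, CPg0492361, CPg0492371, CPg0492461, CPg0492701, CPg0492841, CPg0492861, CPg0492891, CPg0493021, CPg0493041, CPg0493051, CPg0493281, CPg0493351, CPg0493411 and CPg0493421. Many of them were near the floor before maturity, so their ratios are loosely set. CPg0492361 is the extreme: it was at most 2.84 in all 12 developing libraries, and stood at 7686, 8728 and 8056 normalized counts in mature R108. No other plastid member, 2 of 72 mitochondrial and 289 of 44316 nuclear identifiers were below 3 in every developing library and at 10 or more in every mature one. CPg0492371 was already present earlier, at 16.1, 29.3 and 44.6 in R108 at 24 DAP, and reached 10352, 11207 and 10378 at maturity, a 176-fold higher level on the common scale. CPg0493411 stood at 106, 58.4 and 141 at 24 DAP and at 7902, 10598 and 9366 at maturity, and CPg0493041 at 4.86, 7.83 and 32.8 and then at 1383, 2006 and 1772.

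A further 18 members were 4 to 16 times higher at maturity than at 24 DAP in R108, 15 were 2 to 4 times higher, and 23 lay within a factor of 2. The 18 were CPg0492181, CPg0492231, CPg0492401, CPg0492431, CPg0492451, CPg0492561, CPg0492631, CPg0492641, CPg0492711, CPg0492821, CPg0492881, CPg0492941, CPg0492981, CPg0493001, CPg0493061, CPg0493221, CPg0493231 and CPg0493361. All of these but CPg0492561 had groups apart. The 15 were CPg0492251, CPg0492261, CPg0492271, CPg0492291, CPg0492421, CPg0492511, CPg0492871, CPg0492961, CPg0492991, CPg0493171, CPg0493211, CPg0493291, CPg0493311, CPg0493401 and CPg0493441. The 23 within a factor of 2 were CPg0492191, CPg0492241, CPg0492301, CPg0492531, CPg0492541, CPg0492551, CPg0492591, CPg0492601, CPg0492621, CPg0492651, CPg0492671, CPg0492721, CPg0492741, CPg0492751, CPg0492761, CPg0492811, CPg0492851, CPg0492971, CPg0493131, CPg0493261, CPg0493341, CPg0493371 and CPg0493391. CPg0492671 stood at 3609, 5452 and 7250 normalized counts in R108 at 13 DAP, at 2471, 1175 and 1390 at 24 DAP, and at 2517, 3237 and 2884 at maturity, so that the mature libraries were above 24 DAP and below 13 DAP as deposited. On the common scale its 3 stages overlapped.

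Against the set, 10 members were lower at maturity than at 24 DAP in R108 by more than a factor of 2 on the common scale. CPg0492311, CPg0492901 and CPg0493181 were 2.22 to 2.36 times lower. The 7 that were more than 4 times lower were CPg0492501, CPg0492581, CPg0492681, CPg0492731, CPg0492771, CPg0492781 and CPg0492791. Scaling by the library total would raise these log2 ratios by 1.03. The first 3 members would then not be lower by a factor of 2, nor CPg0492681, CPg0492781 and CPg0492791 by a factor of 4. CPg0492681 stood at 708, 530 and 704 in R108 at 24 DAP and at 250, 377 and 336 at maturity. CPg0492791 averaged 434 ± 78.6 and then 123 ± 15.3 (SD, n = 3 each), and CPg0492781 stood at 1039, 804 and 761 and then at 289, 269 and 290. For each of these the groups did not overlap. The other 4 were listed at 0 in all 3 mature R108 libraries.

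CPg0492581 is the only plastid member with at least 10 normalized counts in every developing library and 0 in every mature library of all 3 genotypes, a pattern shown by 0 mitochondrial and 163 nuclear identifiers. Its R108 values were 435, 324 and 449 at 13 DAP and 180, 276 and 314 at 24 DAP, and its abi4-1 values were 306, 387 and 339 and then 128, 121 and 277. CPg0492501, at most 72.5 before maturity, was likewise listed at 0 in all 9 mature libraries. Because a value of 0 in a table without counts can be a failed estimate, and mature values carry another number of decimals, no ratio is given for these.

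In mature seeds nearly every plastid transcript was lower in the mutants. The 75 members with at least 10 normalized counts in all 9 mature libraries all fell in abi4-1 and all fell in abi4-2 against R108, by limma with Benjamini-Hochberg adjustment over 19429 genes and a threshold of 0.05. For each of the 75, every library of either mutant was below every R108 library. The share of all genes with libraries apart in this way was not counted. Over all tested genes 22.2% were called lower and 24% higher in abi4-1, and 20.5% were called lower and 22% higher in abi4-2. Counting all 79 members tested, 76 fell and 1 rose in abi4-1, and 75 fell and 3 rose in abi4-2. The median log2 change was -2.03 in abi4-1 and -1.90 in abi4-2, about a 4-fold lower level, while over all genes it was -0.0026 and 0.0017. Both comparisons use the same R108 libraries.

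**Figure D3:**
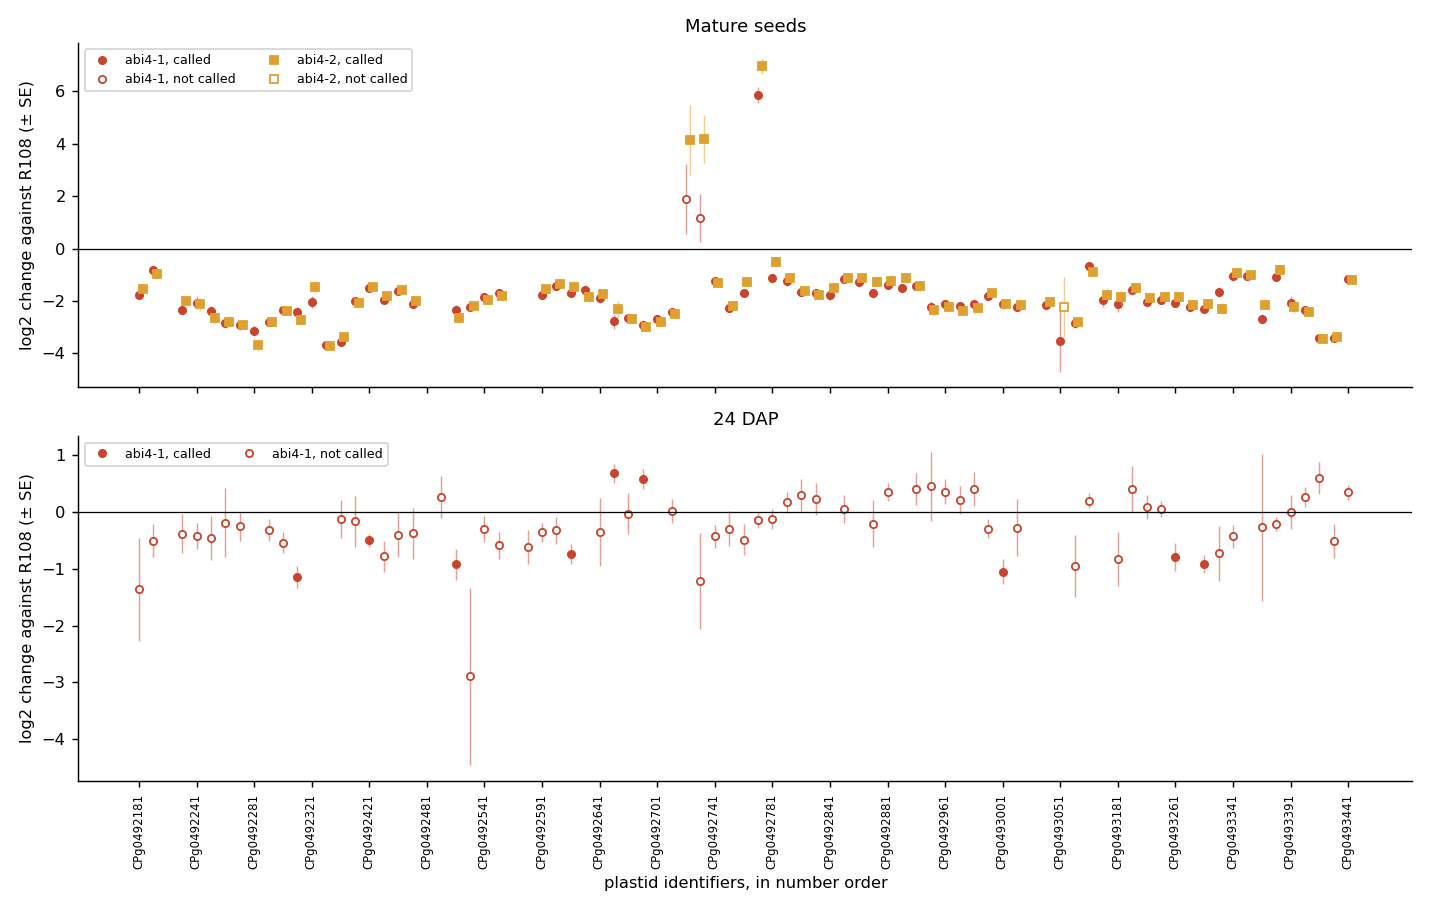
Log2 change (log2 of value + 1) of each tested plastid member against R108, with its standard error, in mature seeds of abi4-1 (circles) and abi4-2 (squares) and at 24 DAP in abi4-1, by identifier number; filled symbols passed an adjusted p of 0.05. In mature seeds the points lie between -3.71 and -0.51 except for CPg0492721, CPg0492731 and CPg0492771, while at 24 DAP they lie between -2.89 and 0.68, with 46 of 67 below 0.

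The size of the fall differed between members. In abi4-1 it was at least 3 on the log2 scale in 6 members, between 2 and 3 in 35, between 1 and 2 in 33 and under 1 in 2, and in abi4-2 the numbers were 5, 33, 33 and 5. By mean change over both alleles the deepest falls were those of CPg0492361, CPg0492371, CPg0493411 and CPg0492281, all from the class that was highest at R108 maturity. CPg0492361 stood at 618, 743 and 577 in abi4-1 and 685, 644 and 540 in abi4-2, a change of -3.66 ± 0.10 (SE, adjusted p = 1.8e-12) and -3.71 ± 0.10 (adjusted p = 1.7e-12), or 12.7- and 13.1-fold below the R108 values given above on the scale of value + 1, which understates the change of low members. CPg0492371 stood at 1039, 917 and 790 in abi4-1 and 1050, 1078 and 948 in abi4-2, a change of -3.55 ± 0.08 and -3.38 ± 0.08. In both mutants both transcripts were above their level in every developing library on the common scale.

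CPg0493411 stood at 892, 844 and 842 in abi4-1 and at 874, 856 and 795 in abi4-2, with changes of -3.42 ± 0.08 and -3.45 ± 0.08. CPg0492281 was low throughout development, at most 8.69, and stood at 415, 611 and 570 in mature R108, at 45.5, 75.1 and 59.3 in abi4-1 and at 50.1, 42.4 and 29.1 in abi4-2. Its neighbour in depth CPg0493421 changed by -3.41 ± 0.12 and -3.37 ± 0.12. CPg0493131 and CPg0492781 were among the shallowest falls. CPg0493131 stood at 3613, 4013 and 3723 in R108, 2614, 2318 and 2302 in abi4-1 and 2232, 1947 and 1963 in abi4-2, a change of -0.65 ± 0.07 and -0.89 ± 0.07. CPg0492781, one of the members that were lower at R108 maturity than at 24 DAP, changed by -1.14 ± 0.15 in abi4-1 and by -0.51 ± 0.15 in abi4-2 (adjusted p = 2.4e-05 and 0.014), and its abi4-2 call was lost without abi4-2 replicate 1, in a fit of all 21 libraries and with no intensity trend (highest adjusted p = 0.158).

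The median change varied with the R108 stage class. Among the 23 members within a factor of 2 between 24 DAP and maturity in R108 the median change was -1.71 in abi4-1 and -1.62 in abi4-2. It was -2.24 and -2.14 among the 16 that were at least 16 times higher, -2.002 and -1.90 among the 17 tested of the 4 to 16-fold class, and -2.11 and -2.21 among the 15 of the 2 to 4-fold class. The 3 members that were 2 to 4-fold lower at R108 maturity on the common scale had medians of -2.11 and -1.87. Of those more than 4-fold lower 5 were tested, with medians of -1.14 and -0.51, the values of CPg0492781. They include CPg0492731 and CPg0492771, listed at 0 in mature R108, which passed the floor through mutant libraries alone and could only come out higher. The medians of this last class are therefore not set against the others. These classes and the changes share the mature R108 libraries, so their order is a description. CPg0492671, of the class within a factor of 2, stood at 418, 469 and 480 in abi4-1 and 402, 478 and 462 in abi4-2, a change of -2.65 ± 0.09 and -2.68 ± 0.09.

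The exceptions in mature seeds were 4 members. CPg0492771 was listed at 0 in all 3 mature R108 libraries, but stood at 72.1, 48.2 and 54.9 in abi4-1 and at 102, 111 and 171 in abi4-2, and was called higher in both. It passed the floor through the mutant libraries alone, and its 0 values in R108 can be failed estimates, so no p-value is given for these calls. Before maturity its values were 183 to 655 in all 12 developing libraries, and on the common scale every mature abi4-1 library was below every developing one. CPg0492731 was listed at 0 in mature R108, at 0, 10.7 and 0 in abi4-1 and at 18.9, 29.3 and 8.94 in abi4-2, and was called higher in abi4-2 only. It too passed the floor through mutant libraries alone, and was not tested without abi4-1 replicate 2 or abi4-2 replicate 1 or 2. No p-value is given for it either. CPg0492721 stood at 34.8, 0 and 0 in R108, 38.7, 46.1 and 0 in abi4-1 and 60.2, 71.8 and 42.8 in abi4-2, and was called higher in abi4-2 (adjusted p = 0.021) and not in abi4-1 (0.26). That abi4-2 call rests on R108 replicates 2 and 3, listed at 0: leaving out either of them, or abi4-2 replicate 1 or 2, ended it, as did a fit with no intensity trend. In abi4-1, 2 alternative limma fits called CPg0492721 higher (lowest adjusted p = 0.0123).

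CPg0493051, at most 3.65 before maturity, stood at 240, 147 and 350 in mature R108, 101, 76.2 and 0 in abi4-1 and 65.3, 39.1 and 45.7 in abi4-2. It was called lower in abi4-1 (limma, adjusted p = 0.020) and not in abi4-2 (0.14), although no abi4-2 library reached an R108 library. The abi4-1 call was lost without R108 replicate 3 and with no intensity trend. Of the alternative limma fits, 2 called CPg0493051 lower in abi4-2 as well (lowest adjusted p = 1.15e-05). CPg0492721, CPg0492731 and CPg0492771 are close in number to CPg0492781 and CPg0492791, which had the lowest R108 ratios of maturity to 24 DAP above 0. The same stretch holds CPg0492741, CPg0492751 and CPg0492761, which had R108 ratios of 1.14, 1.10 and 1.03 and fell in both mutants.

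**Figure D4:**
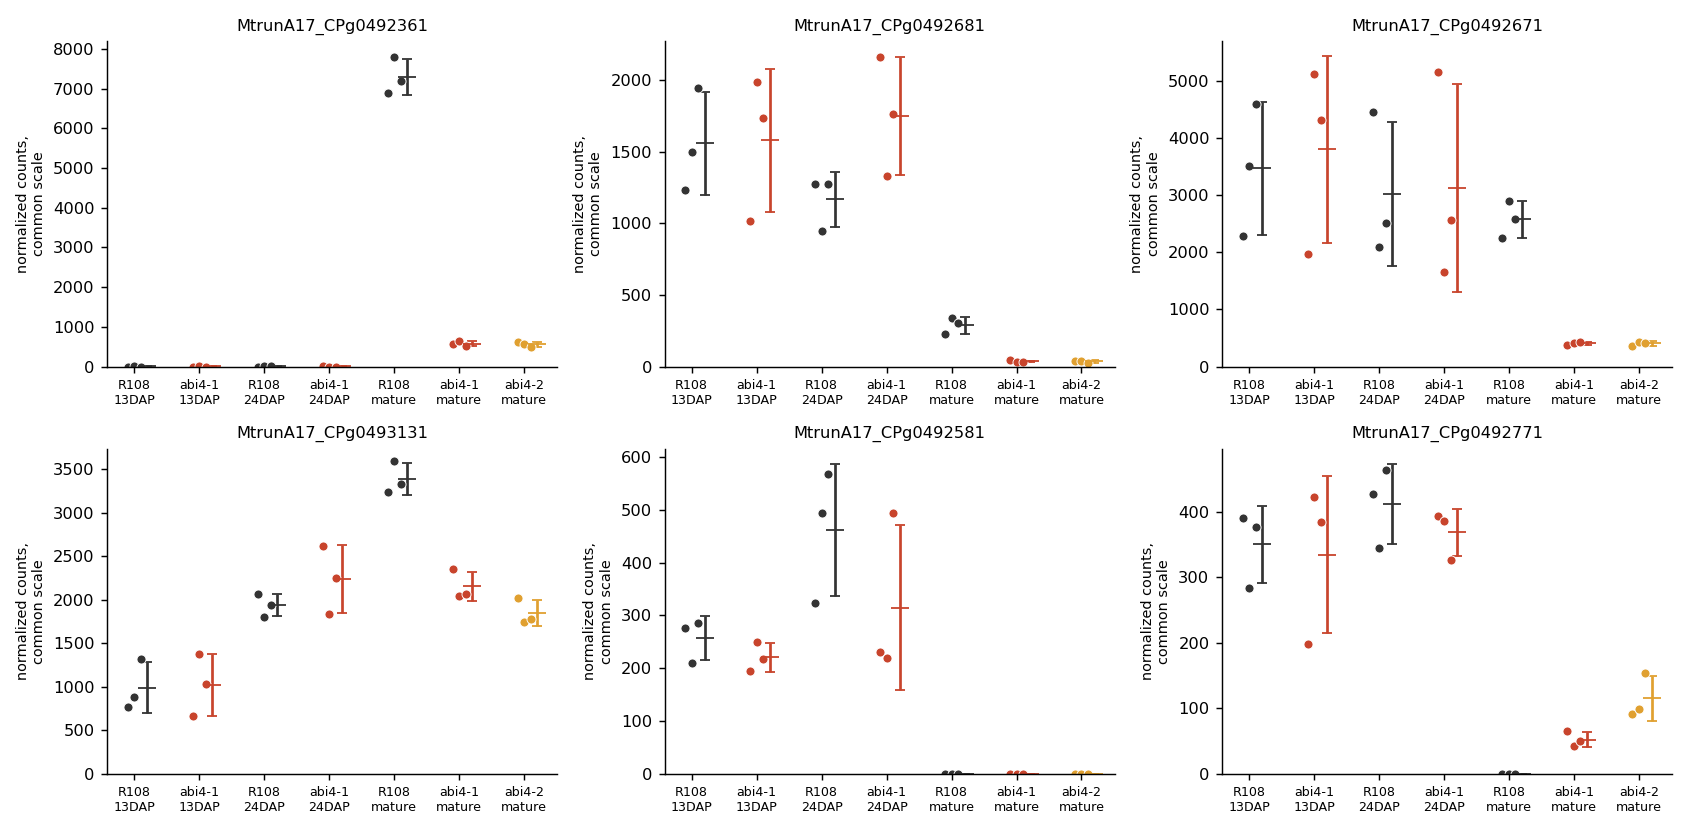
Normalized counts on the common scale in every library of the 7 groups for CPg0492361, CPg0492681, CPg0492671, CPg0493131, CPg0492581 and CPg0492771, with a linear axis for each. Points are libraries, horizontal lines means and bars 1 SD (n = 3); CPg0492361 is near 0 until maturity, CPg0492581 is at 0 in all mature libraries, and CPg0492771 is at 0 in mature R108 alone.

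Mitochondrial transcripts moved the other way in the same libraries. Of 43 tested in mature seeds, 29 rose and 0 fell in abi4-1, with a median log2 change of 0.91, and 41 rose and 0 fell in abi4-2, with a median of 2.06. Their share of the library total was 0.0119% ± 0.000233 in mature R108, 0.0275% ± 0.00622 in abi4-1 and 0.0574% ± 0.0161 in abi4-2 (SD, n = 3 each). A stretch of 20 consecutive tested nuclear identifiers on chromosome 4, from Chr4g0015541 to Chr4g0016361, was chosen because it holds the most deep falls in abi4-1, 14 of at least 4-fold. Its median change was -2.42 in abi4-1 and -2.43 in abi4-2, and its sum was 9.46 to 9.94% of the plastid sum in mature R108, 8.88 to 10.2% in abi4-1 and 9.20 to 9.72% in abi4-2. In R108 at 24 DAP that figure was 36.4 to 48.4%. Whether these identifiers share reads with plastid sequence was not tested, and values of plastid members with a near-identical nuclear copy are uncertain.

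Few plastid members differed between the alleles. Between abi4-1 and abi4-2 in mature seeds 5 of 79 members were lower and 2 higher in abi4-1, against 8.93% and 9.68% of all genes, and the median difference was -0.050. Lower in abi4-1 were CPg0492231 (-0.32 ± 0.10), CPg0492731 (-3.002 ± 0.92, with 2 abi4-1 libraries listed at 0), CPg0492761 (-0.43 ± 0.11), CPg0492771 (-1.10 ± 0.30) and CPg0492781 (-0.63 ± 0.15). For CPg0492761 the libraries stood at 530, 555 and 534 in abi4-1 and at 594, 766 and 840 in abi4-2. All but the first of these members lie between CPg0492731 and CPg0492781. CPg0492741 and CPg0492751 lie in the same stretch and were not called. Higher in abi4-1 were CPg0493131 (0.24 ± 0.07) and CPg0493311 (0.62 ± 0.19), the latter at 51.9, 66.0 and 85.3 against 35.7, 38.9 and 56.6, which overlap. Their adjusted p-values by limma were 0.010 to 0.039, and the call of CPg0492781 held with each library left out. It was lost, however, in a fit of all 21 libraries and with no intensity trend (highest adjusted p = 0.153). Each of the other calls was lost with some library left out. CPg0492761 lost its call without abi4-2 replicate 3, and CPg0492731 without abi4-1 replicate 1 or 3. Without abi4-1 replicate 2 or abi4-2 replicate 1 or 2, CPg0492731 missed the floor and was not tested. CPg0492771 lost its call without abi4-1 replicate 2 or 3 or abi4-2 replicate 3, and CPg0493131 without abi4-1 replicate 1 or abi4-2 replicate 2 or 3. CPg0492231 needed replicate 3 of R108, replicates 2 and 3 of abi4-1 and replicates 1 and 2 of abi4-2, and CPg0493311 needed all libraries but abi4-1 replicate 1 and abi4-2 replicate 3. By contrast 29 of 43 mitochondrial transcripts had a lower level in abi4-1, as tested against abi4-2.

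Relative to each other, the plastid transcripts of the mutants were also composed differently. CPg0492361, CPg0492371, CPg0493411 and CPg0492281 together made up 28.9% ± 1.02 of the plastid sum in mature R108, 11.5% ± 0.221 in abi4-1 and 11.4% ± 1.00 in abi4-2 (SD, n = 3 each). Developing R108 seeds had 0.738% ± 0.0890 (13 DAP) and 0.793% ± 0.301 (24 DAP) there. They were chosen by these same mature contrasts, so the difference carries no test. Without them plastid transcripts still made up 0.353% ± 0.0495 of the total in mature R108, 0.0973% ± 0.00783 in abi4-1 and 0.101% ± 0.00246 in abi4-2. As parts of the plastid sum, 37 of 79 members were higher and 17 lower in abi4-1 with no overlap with R108, and 40 were higher and 18 lower in abi4-2. Set against the same sum, 97.4% of all genes were higher and 0.273% lower in abi4-1, and 97.5% and 0.283% in abi4-2, as the sum itself was lower.

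Neighbouring identifiers changed alike. In mature abi4-1 the median absolute difference in log2 change between members next to each other in number was 0.35 over 74 pairs, and 0.68 over all 3081 pairs. In abi4-2 these values were 0.34 and 0.73, and at 24 DAP in abi4-1 they were 0.30 over 51 pairs and 0.49 over 2211. Between the alleles they were 0.22 and 0.21, so that neighbours were no more alike there. Adjacent identifiers can share a precursor RNA or overlapping reads, and pairs are not independent, so these figures are descriptive.

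At 24 DAP the abi4-1 differences ran both ways. Of 67 members tested, 7 fell and 2 rose, against 6.4% and 9.64% of all genes, and the median log2 change was -0.29, beside -0.011 over all genes. With the replicate number as a block, as the libraries of this stage pair by number, 15 fell and 5 rose, against 9.19% and 11.8% of all genes. These hold all 7 falls and both rises of the unblocked fit, whose values follow. CPg0492311 fell most, from 1382, 1120 and 1344 in R108 to 707, 391 and 687 in abi4-1, a change of -1.15 ± 0.20 (adjusted p = 0.0030). CPg0493001 fell from 444, 376 and 387 to 204, 130 and 270 (-1.05 ± 0.22, adjusted p = 0.0080), and CPg0493291 from 204, 158 and 222 to 115, 89.6 and 101 (-0.92 ± 0.16, adjusted p = 0.0032). In these 3 members the groups did not overlap, and no left-out library ended the call.

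The other falls at 24 DAP were CPg0492511 (-0.92 ± 0.27), CPg0493261 (-0.80 ± 0.24), CPg0492621 (-0.74 ± 0.18) and CPg0492421 (-0.50 ± 0.12), with adjusted p-values of 0.014 to 0.049. All of these depended on abi4-1 replicate 2, the library with the lowest plastid share, and were lost without it. CPg0492421 was also lost without R108 replicate 1, CPg0493261 without R108 replicate 1 or 3 or any abi4-1 library, and CPg0492511 without any library but abi4-1 replicate 1. CPg0492651 rose from 118, 91.1 and 129 to 204, 157 and 179 (0.68 ± 0.16, adjusted p = 0.016) and CPg0492681 from 708, 530 and 704 to 1206, 735 and 985 (0.57 ± 0.17, adjusted p = 0.046), and both calls were lost without abi4-1 replicate 1 or 3, that of CPg0492681 also without R108 replicate 1 or 2. Without abi4-1 replicate 2 the stage had 3 falls and 4 rises, and without both libraries numbered 2 it had 4 and 3. Of the 9 calls of this stage, all but those of CPg0492311 and CPg0493291 were also lost in at least 1 fit with another scaling, pseudocount, set of libraries or trend setting. CPg0492531 was listed at 0 in abi4-1 replicate 2 and at 142 and 241 in the others, and was not called.

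At 13 DAP no plastid transcript differed detectably between genotypes. Of 71 members tested with limma without the replicate block, 0 fell and 0 rose, against 1.2% and 1.26% of all genes called. At an unadjusted p under 0.05 there were 0 of the 71, against 3014 of all 22499 genes tested. The median log2 change was -0.082, beside -0.0088 over all genes, and 50 members had a negative and 21 a positive change. The spread between libraries was wide, with replicate 1 low in both genotypes: CPg0492671 stood at 3609, 5452 and 7250 in R108 and at 3075, 7926 and 6739 in abi4-1. Without both libraries numbered 1, 0 members were called and the median was -0.036. A p above the threshold does not show that the genotypes were alike, and the largest changes, -2.32 in CPg0493041 and 2.35 in CPg0493361, came from members listed at 0 in 1 library of the stage.

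Whether the abi4-1 effect changed with stage was tested as the difference between the within-stage differences. From 13 to 24 DAP 0 of 74 members passed by limma, against 2.37% of all genes lower and 3.87% higher. At an unadjusted p under 0.05 there were 2 of the 74, against 4529 of all 23225 genes tested. With the replicate block CPg0492311 and CPg0493291 passed, both lower, against 3.81% lower and 5.18% higher of all genes. From 24 DAP to maturity 60 of 81 members had a more negative abi4-1 effect and 1 a more positive one, against 9.57% and 12.1% of all genes, with a median of -1.64 beside 0.032. Of the 55 members at 10 or more in all 12 libraries of that fit, 50 had a more negative effect and 0 a more positive one. The strongest were CPg0493411 (-4.02 ± 0.35, adjusted p = 7.3e-06) and CPg0492681 (-3.49 ± 0.26, adjusted p = 2.5e-06). CPg0492681, one of the members that rose in abi4-1 at 24 DAP, stood at 46.8, 39.1 and 37.7 in mature abi4-1 and at 44.5, 46.1 and 28.8 in abi4-2, against 250, 377 and 336 in R108. CPg0492651 did the same, at 141, 208 and 221 in mature R108 and at 38.9, 25.4 and 18.3 in abi4-1, with a difference of -3.45 ± 0.35.

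The step from 24 DAP to maturity in the mutant shows the same contrast member by member. In abi4-1, 17 of 82 members were at least 4-fold higher at maturity with groups apart and 15 at least 4-fold lower, against 14.8% and 27.8% of all genes, with a median log2 ratio of -0.19. All 17 of those higher members were also that much higher in R108, and 16 more passed in R108 alone. Of the lower members, 6 passed in both genotypes and 9 in abi4-1 alone, among them CPg0492311, CPg0492651 and CPg0492671. The 24 DAP libraries of abi4-1 held 2882, 914 and 1436 counts of CPg0492671, its mature libraries 418, 469 and 480, and the mature R108 libraries 2517 to 3237. From 13 to 24 DAP 0 of 74 members were 4-fold higher and 0 lower in abi4-1, against 8.5% and 10.3% of all genes.

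**Figure D5:**
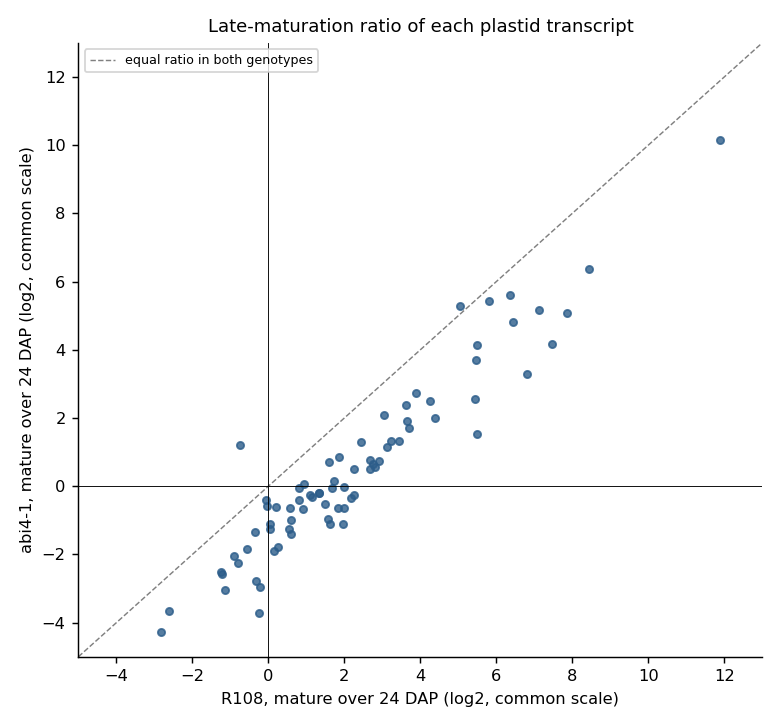
Log2 ratio of mature seeds to 24 DAP on the common scale for each plastid member with a ratio above 0 in both genotypes (77 members), R108 on the horizontal and abi4-1 on the vertical axis, with the line of equal ratios. Of these 77 points 75 lie below the line and 2 above it, CPg0492321 and CPg0492721. Members with a ratio of 0 in 1 genotype are not drawn. These are CPg0492731 and CPg0492771, at 0 in R108 and at 0.266 and 0.142 in abi4-1, and CPg0492561, at 10.8 in R108 and 0 in abi4-1. The share of all genes below the line was not counted.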

How the data were processed

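The authors deposited 1 value per identifier and library under the name FPKM, but they were treated as a signal of normalized counts, because totals are near the number of reads and each stage appears to have a scaling of its own; no source used here states this. Per the submitters' processing notes Salmon was used; its version, the normalization and the genome build are not given in sources used here. Per the labels' protocols, mRNA was enriched and random-primed cDNA was sequenced as short reads. The design text names different plants for the replicates, and also mutants of a gene other than the one in title and labels, which were followed. Where replicates shared plants, p-values measure technical spread alone.

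Whole reads could not be recovered, so no count model was used. Each stage was fitted with limma 3.58.1 in R 4.3.3 (intensity trend) on log2(value + 1), keeping genes that reached 10 normalized counts in 3 or more libraries fitted, on 6 libraries at 13 or 24 DAP and 9 in mature seeds. Stage differences of the abi4-1 effect used 12 libraries. P-values were adjusted over all genes by Benjamini-Hochberg, with a threshold of 0.05. Ratios between stages use a median-of-ratios scale over 21 libraries and carry no test.

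Same-numbered libraries of abi4-1 and R108 deviated from their groups with correlations of 0.154 to 0.293 (13 DAP) and 0.102 to 0.339 (24 DAP), so the numbers, whose meaning the labels do not state, were read as pairs there. The main fits leave these pairs out, and the replicate block was an alternative fit. Effects, standard errors and p-values printed for single members come from the fits without the block. In mature seeds same-numbered mutant and R108 libraries correlated at -0.0392 to 0.0683, and same-numbered abi4-1 and abi4-2 libraries at 0.0171 to 0.141. None of these were read as pairs. No 2 libraries of a group agreed within sampling noise (chi-square per gene at least 2.55).

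The members, comparisons and the rule for the 31 named members were chosen with earlier results of these data known. The rule takes the 4 deepest mean falls in mature seeds, every exception there, every member called between alleles, up to 8 called per direction at 13 or 24 DAP and in the stage differences, and the 3 highest and lowest stage ratios and the 3 largest means. Members outside it are named where a class or a small count is described, after their values were seen.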

Additional observations from a re-analysis of the deposited data

Results flagged for a closer look

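The abi4-1 effect differed between 24 DAP and maturity, by the test of that difference, in 61 of 81 plastid members, 60 of them more negative at maturity. The more negative differences of the 8 members named by the rule, on the scale of log2(value + 1), were -4.02 for CPg0493411, -3.49 for CPg0492681, -3.47 for CPg0492281, -3.45 for CPg0492651, -3.42 for CPg0492371, -3.05 for CPg0492361, -2.89 for CPg0493421 and -2.67 for CPg0492271. CPg0492281 and CPg0492361 were under 10 normalized counts in every 24 DAP library, so that their 24 DAP part rests on very low values, and the call of CPg0492361 was lost with a pseudocount of 0.1 (adjusted p = 0.374). CPg0492771 went the other way, with a difference of 6.02, and since it is listed at 0 in all mature R108 libraries that size depends on the pseudocount. Groups of 3 libraries are too small for the check on single outlying libraries.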

How the results depend on the processing

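Stage ratios of the summed share depended most on the scale. On the log2 scale the R108 ratio of 24 to 13 DAP was -1.11 of the library total, -0.087 without the 5 leading transcripts and 0.23 on the common scale, and in abi4-1 it was -1.27, -0.21 and 0.070. The R108 ratio of maturity to 24 DAP was 2.55, 1.47 and 1.51, and that of abi4-1 was 0.45, -0.63 and -0.55. Leaving out each library gave -1.35 to -0.88 and 2.45 to 2.75 for the R108 steps, 1.20 to 1.67 for R108 maturity to 13 DAP, and -1.57 to -1.03 and 0.22 to 0.74 for those of abi4-1. The ratios of mutant to R108 ranged from -0.16 to 0.38 at 13 DAP, -0.37 to 0.15 at 24 DAP, -2.27 to -2.08 for mature abi4-1 and -2.21 to -2.03 for mature abi4-2.

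At 24 DAP 9 members were called, 5 on values scaled to the column total, 3 with no intensity trend and 20 with the replicate block, and 6 to 10 with a library left out. Between the alleles 7 were called, 2 in a fit of all 21 libraries, 1 with no trend and 4 to 8 with a library left out. For the difference from 13 to 24 DAP 0 were called, 1 with no filter, 2 with the replicate block and 0 to 2 with a library left out, the 2 without abi4-1 replicate 1 of 13 DAP. With a library left out the counts were 0 to 0 at 13 DAP, 76 to 78 for mature abi4-1, 75 to 79 for mature abi4-2 and 53 to 67 for the difference from 24 DAP to maturity. The matching medians ran from -0.38 to 0.28 at 13 DAP, -0.48 to -0.054 at 24 DAP, -2.13 to -1.90 and -2.02 to -1.83 in mature abi4-1 and abi4-2, -0.10 to 1.2e-05 between alleles, and -0.52 to 0.11 and -1.85 to -1.47 for the stage differences. The block, fitted by number, changed no other call count by more than 1.5 times. Among the named members, the all-library fit ended the mature calls against R108 of CPg0492891 and CPg0493041 in both mutants and of CPg0492781 in abi4-2, and a fit with no trend those of CPg0492781 and CPg0492721 in abi4-2 and of CPg0493051 in abi4-1. Over the 31 named members, leaving out a library kept direction and side of the threshold in 872 cases, ended a call in 49 and made one in 3, and the other settings did so in 1045, 52 and 1. The causes were not tested. The separate scaling and the lack of recovered reads limit what low members can show.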
